A study of Rattus norvegicus with 19 samples.

Results

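The genes described here are 5 carriers and pump subunits that handle sodium in the heart: Slc5a1, Slc4a4, Slc12a2, Atp1b1 and Fxyd1. They were chosen by symbol from a list of sodium transporters, with earlier results of these data known. They are 5 of the 17455 genes in the count files. After a filter on low counts 12388 genes were tested, among them 4 of the 5, all except Slc5a1.

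Cardiomyocytes keep intracellular sodium low with the sodium pump, which exports sodium and imports potassium at the cost of ATP. The pump is built from a catalytic alpha subunit and a glycosylated beta subunit, which carries the complex to the membrane, and it is tuned by small FXYD proteins. Sodium enters again through carriers that use its gradient to move glucose, bicarbonate, protons, chloride or calcium. Inhibitors of sodium-glucose cotransport such as empagliflozin act in the kidney, and effects on cardiac sodium carriers have been proposed for them, so the level of these genes in the heart is of interest.

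RNA-seq was performed on 19 hearts of Sprague-Dawley rats that were 24 weeks old before the experiments began, with 1 library per heart. The tissue was left ventricle according to the study's methods. HFpEF rats had drunk 0.5 g/L L-NAME, which blocks nitric oxide synthesis, and had eaten a high-fat diet with 60% of its calories from lard for 5 weeks (n = 3), and control rats at that time were the control 5w group (n = 3). Rats with HFpEF were then gavaged daily for 4 weeks with PBS (untreated, n = 3), with 0.35 g/kg empagliflozin (EMPA, n = 2), with 0.3 g/kg of the antifibrotic drug pirfenidone (PFD, n = 2) or with both drugs (EMPA + PFD, n = 3). Control 9w rats (n = 3) were the controls of this later time. Both control groups drank no L-NAME and, according to the paper, were fed ordinary chow. The paper's methods state the L-NAME and the fat-rich diet for the first 5 weeks only. Its discussion speaks of an induction lasting 9 weeks, so the L-NAME and the diet may have continued during the gavage. The strain field of the labels reads wildtype, and no genetic change was named for any group. Total counts ranged from 7430539 to 13017754 per library, with a median of 9951011.

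Several libraries went against their labels or stood apart from their group. All 19 libraries were labelled male, and the study's methods also give male rats as the source of the RNA. Against this, no count of the Y-linked gene Eif2s3y was found in 7 of them: HFpEF replicates 1 and 3, all 3 untreated hearts and both PFD hearts. The remaining 12 held between 613 and 1321. Ddx3, the other gene of a sex-linked list found in the count files, had 0 counts in the same 7 libraries. Untreated hearts therefore differed in this respect from every library of control 9w, EMPA and EMPA + PFD, and in those comparisons treatment or disease and the presence of Y-linked transcripts cannot be told apart. The same holds for EMPA + PFD against PFD. A term for Eif2s3y counts can be estimated only within HFpEF, the 1 group with both kinds of library, so the values given with that term below rest on few HFpEF hearts: on replicate 2 alone against control 5w, on replicates 1 and 3 alone for the change of the disease effect with time, and on replicate 2 against replicates 1 and 3 in comparisons without HFpEF. Sln, an atrial gene, stood at 156 to 695 CPM (TMM-scaled counts) in control 9w replicates 1 and 3 and untreated replicate 2, and at no more than 5.95 CPM in the other 16 libraries. Leaving out these 3 libraries, chosen by Sln alone, leaves 1 control 9w heart, replicate 2, and 2 untreated hearts. Other atrial genes divide the libraries less sharply. Myl7 stood at 1083, 4260.4 and 3052 CPM in those 3 libraries, at 694, 293 and 307 CPM in control 5w and at no more than 44.4 CPM elsewhere. The sum of 7 atrial markers was 5363 CPM in control 9w replicate 1, close to 5442 CPM in EMPA replicate 2 and within the 3503 to 6652 CPM of control 5w.

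The summed level of 8 ventricular cardiomyocyte markers, of which Myh6 had the highest mean over all libraries, ran from 13419 CPM in HFpEF replicate 1 to 88690 CPM in EMPA + PFD replicate 2. Its group mean ± SD was 56990.1 ± 23319 CPM in control 5w, 23223 ± 11597 in HFpEF, 37572 ± 3096 in control 9w, 45243 ± 24339 in untreated, 42873 ± 5525 in EMPA, 65515 ± 1486 in PFD and 78010.1 ± 9517 in EMPA + PFD. The mean of this sum was thus lowest in HFpEF and highest in EMPA + PFD, but libraries overlapped. Untreated replicate 2 (17276 CPM) lay below HFpEF replicates 2 and 3, and control 5w replicate 1 (83826 CPM) above EMPA + PFD replicates 1 and 3. Single markers can differ in order. Myh6 stood at 4559 and 1707 CPM in EMPA and at 824, 5543 and 5863 CPM in HFpEF. In whole tissue, fewer cells of a type and less RNA per cell cannot be told apart.

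Slc5a1 encodes SGLT1, the cotransporter that takes up glucose together with sodium in the gut and in the late proximal tubule. It had 0 counts in 17 of the 19 libraries, 1 count in control 5w replicate 1 and 1 count in EMPA + PFD replicate 1. A count of 1 has a 95% Poisson interval from 0.0253 to 5.57 counts. The floor used where none were seen, 3 counts, equals 0.215 to 0.3995 CPM depending on the library. These limits cover counting error only. Slc5a1 transcripts were therefore at or under the limit of detection in all 7 groups, and no comparison between groups was made for this gene.

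Of the 14 names listed for the SGLT family, 12 were in the count files and 4 passed the filter. The vitamin transporter gene Slc5a6 had a mean level of 49.9 CPM, with 31.3 to 67.0 CPM over the libraries. Slc5a2, which encodes the renal cotransporter SGLT2 that empagliflozin blocks, had a mean of 1.47 CPM (0.729 to 2.84) and passed in no comparison. Slc5a10, a transporter of mannose and fructose, had a mean of 0.574 CPM. Members of this family were called in 2 pairwise comparisons, both times Slc5a10 alone, which rests on few counts. It had 1 to 4 counts per library in control 5w, 10 to 18 in HFpEF and 4 to 8 in control 9w.

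Slc4a4 encodes NBCe1, the electrogenic cotransporter that brings sodium and bicarbonate into the cardiomyocyte and so counters acid loading. In control 5w it stood at 11.3, 11.1 and 9.55 CPM, and in HFpEF at 3.88, 3.12 and 3.75 CPM. Control 9w hearts had 7.67, 8.24 and 9.57 CPM, and untreated hearts had 7.81, 6.90 and 6.01 CPM. Every HFpEF library was below every library of the other groups, and the untreated libraries overlapped with control 9w. EMPA hearts had 8.66 and 4.37 CPM, PFD hearts 9.86 and 9.36 CPM, and EMPA + PFD hearts 10.8, 17.8 and 16.0 CPM. The gene was a low one, with 34 to 153 counts per library, and the highest library held 5.71 times the level of the lowest.

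Ordered by group mean ± SD, Slc4a4 was highest in EMPA + PFD (14.9 ± 3.66 CPM), followed by control 5w (10.7 ± 0.959), PFD (9.61 ± 0.352), control 9w (8.49 ± 0.976), untreated (6.90 ± 0.901), EMPA (6.51 ± 3.03) and HFpEF (3.58 ± 0.406). Neighbours in this order overlapped in range, except that both EMPA libraries lay above the 3 HFpEF libraries.

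Slc12a2 encodes NKCC1, which carries sodium, potassium and chloride into cells and serves in volume regulation. Control 5w hearts had 112, 98.4 and 105 CPM, and HFpEF hearts had 74.9, 222 and 128 CPM. The HFpEF group held nearly the whole range of this gene. The high value, from replicate 2, was also the highest of all 19 libraries, and it was the HFpEF heart with Eif2s3y counts. Control 9w hearts had 156, 138 and 141 CPM, untreated hearts 138, 170.0 and 198, EMPA hearts 156 and 123, PFD hearts 131 and 135, and EMPA + PFD hearts 121, 70.9 and 87.7 CPM. All 3 EMPA + PFD libraries lay below the EMPA, PFD, untreated and control 9w libraries.

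By group mean ± SD, Slc12a2 ran from untreated (169 ± 30.2 CPM) through control 9w (145 ± 9.70), HFpEF (142 ± 74.7), EMPA (139 ± 23.3), PFD (133 ± 3.10) and control 5w (105 ± 6.91) to EMPA + PFD (93.3 ± 25.8). The only neighbours without overlap were PFD and control 5w. The summed level of 8 endothelial markers, Vwf the highest on average, was 1699 ± 171 CPM in control 5w and 1973 ± 175 in EMPA + PFD, the groups with the lowest Slc12a2 means, against 2585 ± 121 in PFD, 2735 ± 503 in EMPA, 2778 ± 983 in HFpEF, 3293 ± 248 in untreated and 3784 ± 298 in control 9w. The part of endothelial cells in the Slc12a2 values was not tested.

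Atp1b1 encodes the main beta subunit of the cardiac sodium pump. It stood at 505, 402 and 393 CPM in control 5w and at 186, 75.6 and 225 CPM in HFpEF. Control 9w hearts had 208, 147 and 310.0 CPM, and untreated hearts had 322, 150.0 and 256 CPM. The HFpEF and control 9w libraries were all below control 5w. EMPA hearts had 225 and 296 CPM, PFD hearts 399.8 and 339, and EMPA + PFD hearts 354, 500.2 and 499 CPM. The EMPA + PFD libraries were all above the EMPA, untreated and control 9w libraries and overlapped with control 5w.

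The group means ± SD of Atp1b1 were 451 ± 84.1 CPM in EMPA + PFD, 433 ± 62.5 in control 5w, 369 ± 43.0 in PFD, 261 ± 50.2 in EMPA, 242 ± 86.6 in untreated, 222 ± 82.1 in control 9w and 162 ± 77.3 in HFpEF. A gap without overlap lay between PFD and EMPA, and the other neighbours overlapped. HFpEF, with the lowest mean of Atp1b1, was also the group with the lowest mean cardiomyocyte marker sum, and EMPA + PFD had the highest mean of both. Untreated replicate 2 had the lowest Atp1b1 value of its group and held atrial transcripts. Its ventricular cardiomyocyte marker sum was 17276 CPM, against 61634 and 56818 CPM in replicates 1 and 3. The order differed within other groups. Control 9w replicate 2 had the highest sum of its group (41058 CPM) and the lowest Atp1b1 value. HFpEF replicate 1 had a lower sum (13419 CPM) than replicate 2 (20226 CPM) but a higher Atp1b1 value. In EMPA and in PFD the heart with the higher sum had the lower Atp1b1 value. The part of cardiomyocyte content in the Atp1b1 and Slc4a4 values was not tested.

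Fxyd1 encodes phospholemman, which inhibits the cardiac pump until it is phosphorylated. It had 384, 203 and 219 CPM in control 5w, 179, 161 and 239 CPM in HFpEF, 259, 269 and 317 CPM in control 9w and 352, 258 and 348 CPM in untreated hearts. EMPA hearts had 331 and 308 CPM, PFD hearts 398 and 352, and EMPA + PFD hearts 357, 383 and 286 CPM. Fxyd1 had the narrowest range of the 4 tested members, with 2.47 times between the lowest and the highest library. Group means ± SD ran from 375 ± 32.1 CPM in PFD through 342 ± 50.2 in EMPA + PFD, 319.5 ± 16.1 in EMPA, 319 ± 53.4 in untreated, 282 ± 30.9 in control 9w and 269 ± 100.1 in control 5w to 193 ± 40.8 in HFpEF, and every pair of neighbours overlapped.

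**Figure D1:**
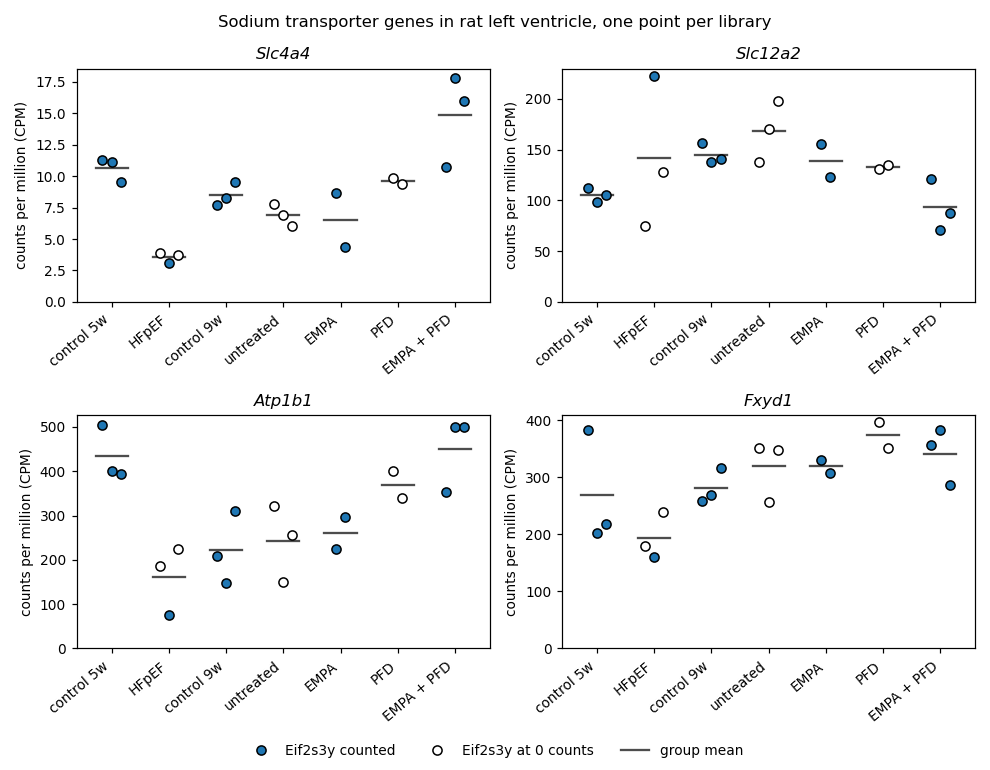
Level of the 4 detected sodium transporter genes in CPM (vertical axis, from 0) in each library of the 7 groups (horizontal axis). Each point is 1 heart, bars are group means, and open points are the 7 libraries with 0 counts of Eif2s3y. Slc4a4 sits between 3.12 and 3.88 in HFpEF and between 9.55 and 11.3 in control 5w.

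The first comparison asked what L-NAME and high-fat diet did within 5 weeks. Slc4a4 fell in HFpEF against control 5w by 1.57 on the log2 scale (SE 0.24, adjusted p = 0.00127), a 2.96-fold lower level, and was lower in 3 of 3 hearts. Atp1b1 fell by 1.42 (SE 0.37, adjusted p = 0.0169), 2.67-fold, also in 3 of 3 hearts. Such counts of hearts, here and below, are a description, because the share of all genes that separate groups likewise was not counted. A gene is called here when its adjusted p is under 0.05 and its level differs 2-fold or more. By this rule 2 of the 4 tested members were called, where 8.69% of all 12388 genes were, and 20% of all genes passed on adjusted p alone. Fxyd1 (-0.48, 95% interval -0.96 to 0.01) did not pass, and without control 5w replicate 1 it was at -0.12. Slc12a2 (0.43, -0.19 to 1.05) did not pass either, and its value rested on HFpEF replicate 2. Without that heart it was -0.05, and without replicates 1 and 3, which lacked Eif2s3y counts, it was 1.08 (adjusted p = 0.0185), with a single HFpEF library assumed to vary like the other groups. The term for Eif2s3y counts gave the same value (1.08, adjusted p = 0.0307). In both settings 3 members were called, but their values rest on replicate 2 as the only HFpEF heart.

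The fall of Slc4a4 passed the rule under every alternative and each left-out heart, with adjusted p from 5.18e-08 to 0.0224. The fall of Atp1b1 passed with each heart left out in turn (-1.73 to -1.08), but not when only the 2 groups compared were fitted (-1.43, adjusted p = 0.0783). With a term for Eif2s3y counts the value was -2.52, which is HFpEF replicate 2 alone against control 5w. Of the cell type markers 2 of 8 cardiomyocyte genes fell, and 2 of 8 endothelial, 4 of 7 tested Schwann cell and 3 of 4 tested mesothelial genes rose, with at most 1 gene called in each other list. The Schwann cell sum was nevertheless high in HFpEF replicate 1 alone (587 CPM), with 70.4 and 176 CPM in replicates 2 and 3 against 75.6, 256 and 225 CPM in control 5w. The part of these cells in the fall of the members was not tested.

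Of 76 listed sodium pathway genes, the members included, 54 were tested, and in HFpEF 5 rose and 4 fell, among the latter Slc4a4 and Atp1b1. The kinase gene Sgk1, whose product raises sodium uptake in epithelia, rose from 57.6 ± 6.49 to 251 ± 30.8 CPM (log2 fold change 2.12, SE 0.22, adjusted p = 0.000184). Wnk2, a kinase of the family that governs cation-chloride cotransport, fell from 142 ± 78.2 to 34.1 ± 18.9 CPM (-2.06, SE 0.48, adjusted p = 0.0110). The pump regulator Fxyd7 rose by 1.15 (adjusted p = 0.0288) and Chp2, a cofactor of sodium-proton exchangers, by 1.13 (adjusted p = 0.0306). Slc8a1, the main sodium-calcium exchanger of the heart, fell from 426 ± 35.5 to 133 ± 50.0 CPM (-1.68, SE 0.28, adjusted p = 0.00217). Its relative Slc8a2 rose by 2.06 from only 1 to 4 counts per library, and Slc5a10 by 2.61. The median log2 fold change of the 54 genes was 0.22, against 0.02 over all genes.

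Genes that passed on adjusted p alone in HFpEF hearts gave the pump a second beta subunit to compare. Atp1b3 rose from 160 ± 25.1 to 263 ± 40.3 CPM (0.72, SE 0.14, adjusted p = 0.00537) while Atp1b1 fell in the same hearts. Chp1, which binds sodium-proton exchangers, fell by 0.58 (adjusted p = 0.00307), and Stk39, the SPAK kinase that activates Slc12a2 protein, fell by 0.80 (adjusted p = 0.0474). The pump subunit gene Atp1b2 (mean 46.5 CPM) and the kinases Wnk1 (396 CPM) and Oxsr1 (138 CPM), which act on Slc12a2 protein or its relatives, passed by neither rule in any comparison.

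Controls were compared between the 2 times because control groups enter some of the later comparisons. None of the 4 tested members was called between control 9w and control 5w, by edgeR, DESeq2 or voom, and 1 of them was under 0.05 before adjustment, where 14.7% of all genes were called and 34.5% passed on adjusted p alone. That gene was Atp1b1, at -0.97 (SE 0.36, adjusted p = 0.0517) and lower in 3 of 3 hearts. It was called without control 9w replicate 3, a library with atrial genes, at -1.28 (adjusted p = 0.0263), and with the replicate number as a block at -1.03 (adjusted p = 0.0330). Without the 3 libraries with atrial genes the value was -1.55, but control 9w is then replicate 2 alone. The other members lay between -0.32 and 0.46.

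Of the 54 pathway genes, 10 rose and 3 fell between the controls. Sgk1 rose from 57.6 ± 6.49 to 449 ± 106 CPM (2.96, SE 0.23, adjusted p = 5.84e-06). The exchangers Slc9a5 (1.58) and Slc8a2 (2.85), the bicarbonate carrier Slc4a8 (1.28), the pump subunit and regulator genes Atp1a4 (2.10) and Fxyd7 (1.76), Slc5a10 (1.98) and the kinase Wnk4 (1.13) rose as well, and Slc8a1 (-1.37, SE 0.28, adjusted p = 0.00262; 165 ± 43.6 CPM in control 9w), Fxyd2 (-1.15) and the scaffold Pdzk1 (-1.03) fell. Slc9a2 had 0 to 1 counts in control 5w and 9 to 11 in control 9w. Atp1b4 was called at 5.05, with 6 to 530 counts among the control 9w libraries, so that the groups overlapped. Beside this, 6 of 8 fibroblast, 4 of 8 leukocyte and 1 of 8 cardiomyocyte markers fell, 6 of 8 endothelial and 2 of 7 atrial markers rose, and at most 1 gene was called in each other list, with fibroblast sums of 5156, 42820.4 and 34591 CPM in the control 5w hearts against 4927, 3546 and 5069 CPM in control 9w. Their part was not tested.

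At 9 weeks none of the 4 tested members was called in untreated hearts against control 9w, where 0.912% of all genes were called and 1.78% passed on adjusted p alone. None was under 0.05 before adjustment, and DESeq2 and voom called none. The 113 genes called in all became 7 without control 9w replicate 2, 14 without untreated replicate 1 and 413 without untreated replicate 2. The log2 fold changes of the members were -0.30 for Slc4a4 (95% interval -0.80 to 0.20), 0.13 for Atp1b1 (-0.64 to 0.90), 0.22 for Slc12a2 (-0.40 to 0.83) and 0.18 for Fxyd1 (-0.30 to 0.66). These intervals do not cover the choice of model or libraries. With a term for Eif2s3y counts Atp1b1 was at -1.32 (SE 0.53, adjusted p = 0.348) and Slc12a2 at 1.35 (SE 0.38, adjusted p = 0.194). Without the 3 libraries with atrial genes Atp1b1 was at 0.97 (SE 0.49, adjusted p = 0.299), with 1 control 9w heart. From the lists Atp1a4 fell by 3.02 (adjusted p = 0.0206), with 13 to 21 counts in control 9w and 1 to 4 in untreated hearts. Sgk1 fell by 0.89 on adjusted p alone (0.0459). Eif2s3y separates these groups completely, and 2 of the control 9w libraries and 1 untreated library held atrial transcripts. Of the markers 3 of 6 tested erythroid genes fell and 1 of 8 leukocyte genes rose.

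Whether the effect of disease differed between the times was tested as an interaction. It passed the rule for Slc4a4 (1.27, SE 0.33, adjusted p = 0.0177) and Atp1b1 (1.55, SE 0.51, adjusted p = 0.0462), 2 of the 4 tested members, where 12% of all genes were called and 20% passed on adjusted p alone. The 1489 genes called in all became 877 without untreated replicate 1 and 2241 without untreated replicate 2. Slc4a4 and Atp1b1 were both lower in HFpEF than in control 5w, and in untreated hearts against control 9w neither passed. For Atp1b1 the interaction is made up of 0.58 between untreated and HFpEF (adjusted p = 0.345) and the lower level of control 9w against control 5w (-0.97), neither of which passed, and for Slc4a4 of 0.94 and -0.32 in the same order. The Atp1b1 call was lost without any 1 of 9 of the 12 hearts, with adjusted p up to 0.128, and when only the groups compared were fitted (1.55, adjusted p = 0.0892). Among left-out hearts the Slc4a4 call was lost only without untreated replicate 1 (1.17, adjusted p = 0.0512), and it was also lost without the 3 libraries with atrial genes (1.31, adjusted p = 0.0667), where Atp1b1 was at 2.39. Without the 2 HFpEF hearts lacking Eif2s3y counts Atp1b1 was at 2.65. Each of these 2 settings leaves a group of 1 heart. With a term for Eif2s3y counts Atp1b1 missed the rule (SE 0.43, adjusted p = 0.0730) while still above 2-fold, much as it did without HFpEF replicate 2 (SE 0.43, adjusted p = 0.0733). Markers were called for this interaction too, 2 of 8 cardiomyocyte genes upward (median of the list 1.55), and 3 of 8 endothelial, 5 of 6 tested erythroid and 2 of 4 tested mesothelial genes downward, and their part was not tested. Of the pathway genes Slc8a1 (2.14, SE 0.40), Sgk1 (-3.02), Slc5a10 (-3.47), Slc8a2 (-2.84), the potassium-chloride cotransporter Slc12a7 (1.07) and Pdzk1 (1.15) were also called.

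From HFpEF at 5 weeks to untreated hearts at 9 weeks, none of the 4 tested members was called, where 0.194% of all genes were called and 0.226% passed on adjusted p alone, and 2 were under 0.05 before adjustment. Slc4a4 stood 0.94 higher (SE 0.24, adjusted p = 0.0772) and Fxyd1 0.73 higher (SE 0.23, adjusted p = 0.107), each in 3 of 3 hearts. DESeq2 and voom called none of the members. The 24 genes called in all became 933 without untreated replicate 2, 260 without HFpEF replicate 2 and 4 without HFpEF replicate 1. Of the markers 5 of 6 tested erythroid genes fell. This comparison holds rats of different age and weeks of disease, so time and any recovery cannot be told apart.

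EMPA alone was compared with untreated hearts to ask whether the drug moved cardiac sodium transporter transcripts. No tested member was called, where 0.0404% of all genes were called by either rule, none was under 0.05 before adjustment, and DESeq2 and voom called none. Atp1b1 was at 0.11 (95% interval -0.75 to 0.96), Slc4a4 at -0.09 (-0.66 to 0.48), Fxyd1 at 0.00 (-0.54 to 0.54) and Slc12a2 at -0.28 (-0.97 to 0.42). Slc4a4 was at -0.66 without EMPA replicate 1 and at 0.32 without replicate 2. Eif2s3y separates these groups completely, and with a term for its counts Atp1b1 was at 1.55 (SE 0.55, adjusted p = 0.295), Slc12a2 at -1.41 (SE 0.39, adjusted p = 0.210), Fxyd1 at 0.38 and Slc4a4 at 0.20. None of the 54 pathway genes was called either, with 5 under 0.05 before adjustment. The 2 tested sex-linked genes were not called here, although untreated hearts had 0 counts of both, so a missing call says little.

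PFD alone gave no called member, where 0.00807% of all genes were called by either rule, and none was under 0.05 before adjustment or called by DESeq2 or voom. Slc4a4 (0.48, 95% interval -0.08 to 1.03) and Atp1b1 (0.61, -0.24 to 1.46) were higher in both PFD hearts than in any untreated heart. Slc12a2 (-0.34, -1.04 to 0.35) was lower in both. How many of all genes separated these groups likewise was not counted. Fxyd1 stood at 0.23 (-0.30 to 0.77), and its lower PFD heart (352.2 CPM) was only just above the highest untreated heart (351.9 CPM). Without untreated replicate 2, Atp1b1 was at 0.36 and Fxyd1 at 0.10. Neither group had Eif2s3y counts, so this comparison was matched in that respect.

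The combination was compared with untreated hearts next. Slc4a4 rose in EMPA + PFD against untreated hearts by 1.10 (SE 0.23, adjusted p = 0.0142), a 2.15-fold higher level, and was higher in 3 of 3 hearts. It was the 1 called member of the 4 tested, where 3.82% of all genes were called and 12.1% passed on adjusted p alone. The 473 genes behind this share became 59 without EMPA + PFD replicate 2, 83 without untreated replicate 2, 33 without the 3 libraries with atrial genes and 5 when only these 2 groups were fitted. The count was higher without untreated replicate 1 (910) or EMPA + PFD replicate 1 (793). It was lower without untreated replicate 3 (210) or EMPA + PFD replicate 3 (159). Atp1b1 was at 0.90 (SE 0.36, adjusted p = 0.105) and Slc12a2 at -0.85 (SE 0.29, adjusted p = 0.0650), and neither passed. The libraries of these groups did not overlap for either gene, but the share of all genes without overlap was not counted. Fxyd1 was at 0.10 (95% interval -0.38 to 0.58). The Slc4a4 call was lost without untreated replicate 2 (1.10, adjusted p = 0.0601), untreated replicate 3 (1.03, 0.0507) or EMPA + PFD replicate 2 (0.97, 0.0738), when only these 2 groups were fitted (1.09, 0.0925), and without the 3 libraries with atrial genes (1.10, 0.0898). It was also lost with a term for Eif2s3y counts (1.39, 0.0881). That term gave 2.34 for Atp1b1 and -1.98 for Slc12a2, values that carry over the difference of HFpEF replicate 2 from its group and are not taken as calls. Slc12a2 was called without EMPA + PFD replicate 1 (-1.07, adjusted p = 0.0406). Of the markers 1 of 8 cardiomyocyte and 1 of 6 tested erythroid genes rose, and 1 of 8 endothelial and 2 of 7 atrial genes fell, and their part was not tested.

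Of the pathway genes 4 rose, Slc4a4 among them, and 1 fell with the combination. The thiazide-sensitive cotransporter Slc12a3 rose from a mean of 5.55 to 14.3 CPM (1.36, SE 0.32, adjusted p = 0.0199). Slc8a1 rose from 226 ± 43.8 to 468 ± 130.0 CPM (1.05, SE 0.28, adjusted p = 0.0304), and Atp1a4 by 2.29 from 1 to 4 counts per library. Atp1b4 fell by 7.16 with 2 to 847 counts in the untreated libraries, the highest in untreated replicate 2, which held atrial transcripts. No pathway gene was called without that replicate. On adjusted p alone Stk39 (0.98), Chp1 (0.50) and the ubiquitin ligase Nedd4l (0.60) rose, and the regulator Slc9a3r1 (-0.86), the mitochondrial exchanger Slc8b1 (-0.94) and Slc12a9 (-0.98) fell.

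Against EMPA, the combination raised Slc4a4 by 1.19 (SE 0.27, adjusted p = 0.0214), 1 called member of 4, where 3.44% of all genes were called and 9.71% passed on adjusted p alone. The 426 called genes became 7 without EMPA replicate 2, 76 without EMPA replicate 1 and 77 without EMPA + PFD replicate 2. Both groups carried Eif2s3y counts. Without EMPA replicate 2, the lower of the EMPA hearts at 4.37 CPM, the value was 0.78 (adjusted p = 0.183), and the call was also lost without EMPA + PFD replicate 2 (1.06, 0.0728) or replicate 3 (1.16, 0.0599). Atp1b1 (0.79, 95% interval -0.09 to 1.67) and Slc12a2 (-0.58, -1.26 to 0.11) did not pass. Of the 54 pathway genes 4 rose, Slc4a4 among them, and 3 fell, with Slc12a3 at 1.36, Slc8a1 at 1.11 (adjusted p = 0.0436), Slc9a5 at -1.55, Slc8a2 at -2.50 and the neuronal chloride carrier Slc12a5 at -1.71. Of the markers 5 of 6 tested erythroid, 2 of 8 smooth muscle and pericyte and 2 of 7 tested Schwann cell genes fell. EMPA replicate 2 also had a smooth muscle and pericyte marker sum of 3449 CPM against 1611 CPM in replicate 1, and the part of these cells was not tested.

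Against PFD, the combination gave 0 called members and 0% called genes by either rule, with 1 member, Slc4a4, under 0.05 before adjustment (0.63, SE 0.26, adjusted p = 0.435) and none called by DESeq2 or voom. The interaction of EMPA and PFD, which asks whether the combination exceeded the sum of both drugs on the log2 scale, was 0.72 for Slc4a4 (95% interval -0.08 to 1.51), 0.18 for Atp1b1 (-1.03 to 1.40), -0.23 for Slc12a2 (SE 0.46) and -0.13 for Fxyd1 (-0.90 to 0.63). No member was called for it, where 0.00807% of all genes were called by either rule, none was under 0.05 before adjustment, and DESeq2 and voom called none. The Slc4a4 value rested on single EMPA hearts, with 0.30 without EMPA replicate 2 and 1.29 without replicate 1. These intervals leave room for changes of more than 2-fold in 3 of the 4 genes.

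EMPA + PFD hearts were finally set against control 9w. Atp1b1 rose by 1.02 (SE 0.36, adjusted p = 0.0419), 2.03-fold, the 1 called member of 4 where 12.1% of all genes were called. Slc4a4 rose by 0.80 (SE 0.23, adjusted p = 0.0168) on adjusted p alone, so that 2 of 4 passed by that rule against 33.8% of all genes. Both were higher in 3 of 3 hearts. Slc4a4 no longer passed without EMPA + PFD replicate 2 (0.66, adjusted p = 0.0736), control 9w replicate 1 (0.74, 0.0645) or replicate 2 (0.78, 0.0559), or without the 3 libraries with atrial genes (0.85, 0.124). The Atp1b1 call was lost without any of 4 of the 6 hearts, with values from 0.80 to 1.34 over all 6 and adjusted p up to 0.159, and it was also lost with upper quartile scaling (0.95) and with no filter beyond 1 count (0.99). Of the control 9w hearts 2 held atrial transcripts. Without the 3 libraries with atrial genes Atp1b1 was at 1.61, with 1 control 9w heart. Slc12a2 was at -0.64 (95% interval -1.25 to -0.02, adjusted p = 0.104) and Fxyd1 at 0.28 (-0.20 to 0.76).

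In the same comparison 4 pathway genes rose, Atp1b1 among them, and 7 fell, 3 of the latter in the pump list. Slc12a3 rose by 1.63 (adjusted p = 0.00247), and the level of Slc8a1 rose 2.83-fold (adjusted p = 0.00197). Fxyd5 fell from 58.6 ± 10.7 to 24.1 ± 0.861 CPM (-1.28) and Fxyd6 from 81.2 ± 10.2 to 37.4 ± 10.4 CPM (-1.12). Atp1b4 was also called (-7.09), with an uneven 6 to 530 counts among the control 9w libraries and 0 to 3 in EMPA + PFD. Sgk1 fell by 1.39 (adjusted p = 0.000775), from 449 ± 106 to 171 ± 54.5 CPM. Slc9a5 (-1.47), Slc12a5 (-1.61) and the epithelial channel subunit Scnn1a (-1.08) fell as well. Atp1b3 fell by 0.63 on adjusted p alone (0.00473), opposite in sign to Atp1b1, as in HFpEF against control 5w. Here 2 of 8 cardiomyocyte markers rose, 5 of 8 endothelial, 4 of 7 atrial, 4 of 6 tested erythroid and 1 of 4 tested mesothelial markers fell, and their part was not tested.

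**Figure D2:**
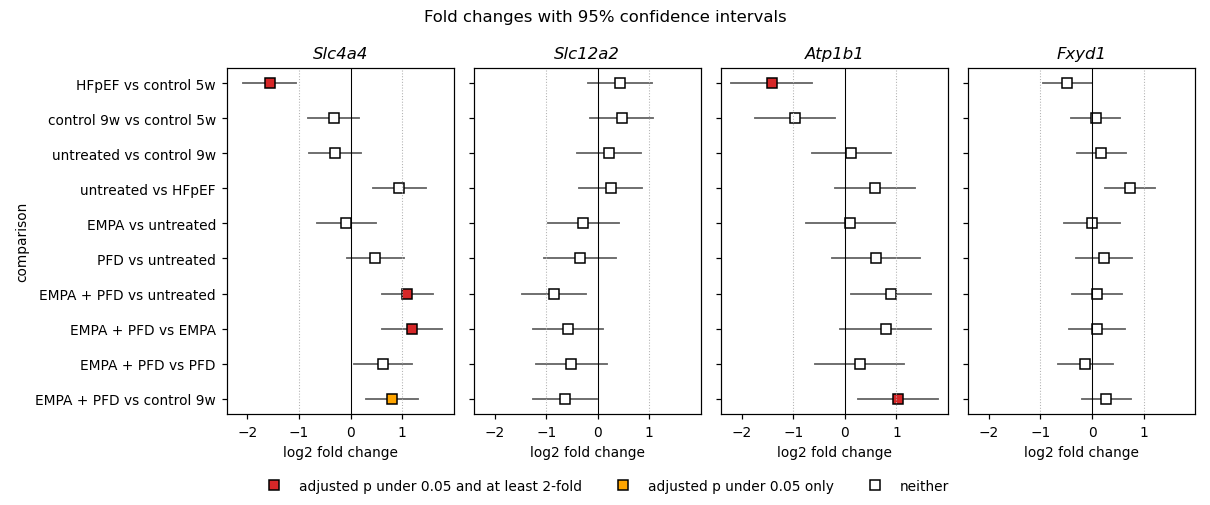
Fitted log2 fold change (horizontal axis) of the 4 tested members in the 10 comparisons of 2 groups (vertical axis), with 95% confidence intervals as lines. Filled red squares passed an adjusted p of 0.05 with at least 2-fold change, orange squares the adjusted p alone and open squares neither. Slc4a4 is at -1.57 in HFpEF against control 5w and at 1.10 in EMPA + PFD against untreated, and no Fxyd1 or Slc12a2 square is filled.

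The other lists of cell type markers gave further context for the 19 libraries, and the gene named with each list is the one with the highest mean. Leukocyte marker sums (Lyz2) ran from 235 to 2392 CPM, highest in HFpEF replicate 1, which was also highest for Schwann cell and nerve markers (Ncam1; 587 CPM). Adipocyte sums (Fabp4) ran from 541 to 3653 CPM and mesothelial sums (Wt1) from 27.7 to 194 CPM, both lowest in control 5w replicate 2 and highest in control 9w replicate 2. Erythroid sums (Hbb) ran from 147 to 4089 CPM, with 245 ± 61.4 in untreated and 287 ± 186 in EMPA + PFD hearts against 1565 ± 330 in control 9w. Atrial sums (Nppa) ran from 184 to 23748 CPM.

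The genes whose log2 CPM followed each member most closely over the 19 libraries were named by Pearson's r among 11738 genes with a mean of at least 1 CPM, as a description in which all pairs share libraries and group structure. For Slc4a4 they were Slco5a1 (r = 0.938, Spearman's rho = 0.923), Sema4d (0.921, 0.861) and Tfpi (0.917, 0.805). For Slc12a2 they were Arhgef15 (0.930, 0.877), Podxl (0.930, 0.889) and Klhl4 (0.922, 0.895). Atp1b1 was followed by Ehd4 (0.956, 0.947), Hyou1 (0.955, 0.919) and Slc8a1 (0.954, 0.977), and Fxyd1 by Ndufc2 (0.900, 0.935), Fundc2 (0.899, 0.888) and Pank2 (0.888, 0.805). Without untreated replicate 2, 3 of 3 genes remained for Slc12a2, 2 of 3 for Slc4a4 and 1 of 3 each for Atp1b1, namely Slc8a1, and Fxyd1.

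Promoter windows from RefSeq (GRCr8, 300 bases around a gene's start) were found for 4 of the 5 members, namely Slc5a1, Slc4a4, Slc12a2 and Fxyd1. The windows of Slc4a4 and Slc12a2 are shown because these carriers moved to opposite sides in EMPA + PFD hearts, Slc4a4 past the test and Slc12a2 short of it. Capitals mark GC boxes, searched as GGGCGG on both strands (CCGCCC on the printed one). The Slc4a4 window is at chr14:19468233-19468532 on the minus strand, inside the annotated span of a gene with several start sites, and the Slc12a2 window is at chr18:53546083-53546382 on the plus strand.
Slc4a4: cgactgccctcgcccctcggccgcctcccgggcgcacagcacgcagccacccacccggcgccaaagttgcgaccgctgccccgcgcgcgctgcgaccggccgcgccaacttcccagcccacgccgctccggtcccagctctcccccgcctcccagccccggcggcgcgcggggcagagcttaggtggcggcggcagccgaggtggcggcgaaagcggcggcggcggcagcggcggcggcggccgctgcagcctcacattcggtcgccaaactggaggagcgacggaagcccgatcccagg
Slc12a2: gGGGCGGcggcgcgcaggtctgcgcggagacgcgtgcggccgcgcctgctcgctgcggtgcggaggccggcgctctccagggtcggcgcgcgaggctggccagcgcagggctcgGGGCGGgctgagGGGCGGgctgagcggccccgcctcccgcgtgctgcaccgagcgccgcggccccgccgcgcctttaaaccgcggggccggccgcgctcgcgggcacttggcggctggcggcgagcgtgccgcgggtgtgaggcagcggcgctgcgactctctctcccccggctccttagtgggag

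The Slc12a2 window held 3 GC boxes, the Fxyd1 window 1, and the Slc4a4 and Slc5a1 windows 0. Of 33469 promoter windows of the same length, 33.1% held at least 1 and 8.97% held 3 or more. None of the 4 windows held TATAAA on either strand, which 14.2% of windows did. G and C made up 78% of the Slc4a4 window, 80.7% of the Slc12a2 window, 65.3% of the Fxyd1 window and 64.7% of the Slc5a1 window. These matches are a description of the letters and not of binding.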

How the data were processed

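RNA was measured in 19 rat hearts. The deposited files hold whole-number counts per gene and library, which the authors made from reads on the rn6 genome; the submitters' processing notes name Trim Galore, FastQC, HISAT2, HTSeq and DESeq2, without versions. Strandedness and overlap mode of the counting are not given in the sources used here. In GRCr8, Atp1b1 overlaps Nme7 by 183 bases and Slc4a4 overlaps a pseudogene by 709 bases, so those reads could be shared. The members and gene lists were chosen with earlier results of these data known.

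Counts were fitted with edgeR 4.0.16 in R 4.3.3 (TMM, filterByExpr, quasi-likelihood F test, 1 model of 7 groups) and adjusted by Benjamini-Hochberg over 12388 genes. A called gene had an adjusted p under 0.05 and at least a 2-fold change. CPM used TMM-scaled totals, and intervals used the moderated degrees of freedom. The text names all members, every called gene of a pathway list with 5 or fewer called (otherwise the 4 largest), and pump subunits and partners with a mean of at least 10 CPM; some genes that this rule covers are not reported here. Likeness used log2 CPM with a prior count of 2. Alternatives were DESeq2 1.42.0, voom (limma 3.58.1), RLE and upper quartile scaling, other filters, fits on the compared groups alone, a replicate block, a term for Eif2s3y counts over 3, and each heart left out.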

Additional observations from a re-analysis of the deposited data

Results flagged for a closer look

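The difference between untreated and control 9w hearts was set against the difference between HFpEF and control 5w hearts, and for 2 sodium transporter genes the change over time passed the test. The interaction was 1.27 on the log2 scale for Slc4a4 and 1.55 for Atp1b1. At 5 weeks the disease effect was -1.57 for Slc4a4 and -1.42 for Atp1b1, and at 9 weeks it was -0.30 and 0.13. Part of this lies between the controls, where control 9w against control 5w was at -0.97 for Atp1b1 and -0.32 for Slc4a4, while untreated against HFpEF was at 0.58 and 0.94, and none of these 4 values passed. Eif2s3y counts differ between the 9-week groups in every library and between the 5-week groups in 2 of 3 HFpEF hearts. With a term for these counts, which leaves HFpEF replicates 1 and 3 to set the value, the Atp1b1 interaction missed the threshold (SE 0.43, adjusted p = 0.0730) while still above 2-fold. The Atp1b1 call was also lost without any 1 of 9 of the 12 hearts (adjusted p up to 0.128) and with only the groups compared (1.55, adjusted p = 0.0892). The Slc4a4 call was lost without untreated replicate 1 (1.17, adjusted p = 0.0512) and without the 3 libraries with atrial genes (1.31, adjusted p = 0.0667). For the same interaction 2 of 8 cardiomyocyte markers were called upward, and 3 of 8 endothelial and 5 of 6 tested erythroid markers downward. Their part was not tested.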

How the results depend on the processing

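HFpEF against control 5w. With only the groups compared, 1 member and 3 pathway genes were called (460 in all, against 1076). With the term for Eif2s3y counts 3 members were called, as without the 2 HFpEF libraries lacking them, each time on 1 HFpEF heart. By adjusted p alone 15 pathway genes passed. Fxyd1 was at 0.0135 by voom with quality weights.

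Control 9w against control 5w. With at least 10 counts in every library 7 pathway genes were called (1377 in all, against 1817). With the replicate number as a block 1 member was called (Atp1b1, -1.03), as it was without the 3 libraries with atrial genes, where control 9w is 1 heart.

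Untreated against control 9w. Pathway genes called were 0 with at least 10 counts in every library, 2 by DESeq2, 5 by voom, 0 with a term for Eif2s3y counts, 2 by adjusted p alone and 0 without the 3 libraries with atrial genes, where 82, 297, 1037, 2, 220 and 80 of all genes were called in the same order, against 113. With the term for Eif2s3y counts Atp1b1 was at -1.32 and Fxyd1 at -0.20. Atp1b1 was at 0.97 without the 3 libraries with atrial genes.

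Untreated against HFpEF. Pathway genes called were 6 by DESeq2, 6 by voom and 5 without the 3 libraries with atrial genes, where 441, 1076 and 635 of all genes were called against 24 in the fit reported. Slc12a2 was at -0.40 without the 2 HFpEF libraries lacking Eif2s3y counts.

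EMPA against untreated. Fxyd1 was at -0.00356 with relative log expression scaling, -0.0288 with upper quartile scaling, -0.0149 with no filter beyond 1 count, -0.00351 by DESeq2, -0.11 by voom and -0.13 without the 3 libraries with atrial genes. Atp1b1 was at -0.0320 by voom and -0.15 without those 3 libraries, and Slc4a4 at 0.20 with the term for Eif2s3y counts.

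EMPA + PFD against untreated. By voom 2 members and 8 pathway genes were called, of 834 genes called in all against 473 in the fit reported. With only the groups compared 0 members and 0 pathway genes were called (5 in all), and likewise 0 and 0 without the 3 libraries with atrial genes (33 in all). With the term for Eif2s3y counts 2 members and 3 pathway genes were called (429 in all), with Slc12a2 at -1.98 and Atp1b1 at 2.34 in place of Slc4a4, values that rest on the HFpEF hearts. By adjusted p alone 11 pathway genes passed. Fxyd1 was at -0.10 by voom and -0.0333 without the 3 libraries with atrial genes.

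EMPA + PFD against EMPA. By voom 11 pathway genes were called (834 in all, against 426 in the fit reported). With only the groups compared 0 members and 4 pathway genes were called (550 in all), and with the replicate block 3 pathway genes (198 in all).

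EMPA + PFD against PFD. DESeq2 and voom each called 1 pathway gene (47 and 109 in all, against 0). Fxyd1 was at 0.24 with the term for Eif2s3y counts.

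EMPA + PFD against control 9w. Members called were 0 with upper quartile scaling and 0 with no filter beyond 1 count. By adjusted p alone 2 members and 22 pathway genes passed.

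EMPA by PFD interaction. Atp1b1 was at -0.11 with the replicate block, and Fxyd1 at 0.000451 without the 3 libraries with atrial genes.

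Disease by week interaction. Members called were 1 with only the groups compared, 1 with the term for Eif2s3y counts and 1 without the 3 libraries with atrial genes. Slc12a2 was at 0.27 with that term.

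With each heart left out in turn, members called ranged from 0 to 1 for control 9w against control 5w, 0 to 2 for the disease by week interaction, 0 to 2 for EMPA + PFD against control 9w, 0 to 1 against EMPA and 0 to 2 against untreated. Pathway genes called ranged from 7 to 12, 3 to 15, 7 to 12, 0 to 10 and 0 to 13 in the same order, from 0 to 3 for untreated against control 9w and from 0 to 5 for untreated against HFpEF. Of all genes, 1206 were called for control 9w against control 5w without control 9w replicate 2 (1817 in the fit reported). For EMPA + PFD against control 9w, 973 were called without EMPA + PFD replicate 2 (1495 in the fit reported).

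Log2 fold changes that changed sign with a heart left out ranged as follows. Slc12a2 ran from -0.0514 to 0.74 in HFpEF against control 5w, from -0.0569 to 0.73 in untreated against HFpEF and from -0.52 to 0.27 for the disease by week interaction. Atp1b1 ran from -0.13 to 0.44 in untreated against control 9w, from -0.15 to 0.36 in EMPA against untreated and from -0.0749 to 0.43 for the EMPA by PFD interaction. Fxyd1 ran from -0.10 to 0.43 in control 9w against control 5w, from -0.13 to 0.0774 in EMPA against untreated, from -0.0339 to 0.23 in EMPA + PFD against untreated, from -0.20 to 0.00670 against PFD and from -0.21 to 0.00405 for the EMPA by PFD interaction. Slc4a4 ran from -0.66 to 0.32 in EMPA against untreated.

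The 2 settings that leave out libraries by atrial genes or by Eif2s3y counts were chosen after seeing the data. With 2 or 3 hearts per group the tests miss moderate changes, and they can miss large ones. In EMPA against untreated and in EMPA + PFD against PFD, 0 of 2 tested sex-linked genes were called. Yet all untreated and PFD hearts had 0 counts of both genes, and all EMPA and EMPA + PFD hearts held them. That no member was called in these comparisons therefore says little about the absence of a change. Eif2s3y counts separate several comparisons completely, and the term for them rests on the HFpEF group alone. Replicate numbers showed no pairing between groups (median r -0.07 for equal numbers, 0.04 for others), so the block is an alternative only. RNA levels give no measure of carrier protein, its phosphorylation or sodium flux, which were not analysed here.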
